A study of Homo sapiens with 3 samples.

Results

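This account covers 10 genes of matrix breakdown in HaCaT cells: the matrix metalloproteinases MMP1, MMP2, MMP3, MMP9, MMP10, MMP13 and MMP14, and the tissue inhibitors TIMP1, TIMP2 and TIMP3. They were taken by symbol, from the transcript names of the deposited tables with the final number removed, on assembled chromosomes. All 10 were found, with 35 listed transcripts, among 60506 genes. HaCaT is a spontaneously immortalized human keratinocyte line. The cells were transfected with 10 nM of siRNA No.1 against the splicing factor SRSF5, of siRNA No.2 against SRSF5, or of a control siRNA, and 1 library was sequenced from each. All 3 libraries come from the same line, labelled wild type in the control and SRSF5 knockdown in the others, and from the same lipid reagent. SRSF5 knockdown is thus represented by n = 2 libraries that used unlike siRNAs, and the control by n = 1. They are called siRNA 1, siRNA 2 and control below.

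Matrix metalloproteinases are zinc-dependent enzymes that cut collagens and other matrix proteins, and most are secreted as inactive precursors. TIMPs bind the active site and block it. In skin, keratinocytes that migrate over a wound make collagenase and stromelysin, and stratified, unwounded epidermis makes little of either.

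The targeted gene SRSF5 had a summed FPKM of 44.3 with siRNA 1 and 18.7 with siRNA 2, against 94.1 in the control, or 47.1% and 19.8% of the control. FPKM is a read number scaled to transcript length and library size. Counted over the largest transcript of every gene, a library amounted to 15864985 to 18323681 equivalents of a 100-base read. Of 10 keratinocyte markers 0 were at 0 in any library, and the summed FPKM of their highest transcripts was 1868 with siRNA 1, 3381 with siRNA 2 and 1554 in the control. The same sum over 9 fibroblast markers was 1.74, 1.80 and 0.843, with 1, 1 and 3 of the 9 at 0. For 5 leukocyte markers it was 10.4, 8.99 and 14.7, with 1, 0 and 0 at 0. Single genes made up most of both sums. CD68 alone was at 10.1, 8.80 and 14.6 FPKM, and the other leukocyte markers were far lower. COL1A1 was at 1.54, 1.46 and 0.645 FPKM of the fibroblast sum. In the keratinocyte sum KRT14 was at 554, 1670 and 382 FPKM, the largest part with siRNA 2. KRT6A, at 118, 125 and 143 FPKM, was below the control with both siRNAs, so the keratinocyte markers did not all rise. The part of these markers in the results was not tested. In a bulk library more cells that make an RNA and more RNA per cell cannot be told apart.

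The catalytic zinc site is a feature that the 7 metalloproteinase members share, and the likeness of its coding sequence is compared here. The coding sequence of each site is given below from GENCODE 29 (GRCh38), with capitals for the codons of the 3 zinc-binding histidines and of the catalytic glutamate.
MMP1: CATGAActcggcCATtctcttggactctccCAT
MMP13: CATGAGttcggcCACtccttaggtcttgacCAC
MMP3: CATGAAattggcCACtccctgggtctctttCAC
MMP10: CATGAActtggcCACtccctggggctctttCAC
MMP2: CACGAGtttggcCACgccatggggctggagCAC
MMP9: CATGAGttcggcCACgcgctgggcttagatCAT
MMP14: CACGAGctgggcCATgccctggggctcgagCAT

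The MMP1 site lies at chr11:102795549-102795581, that of MMP13 at chr11:102952115-102952147, that of MMP3 at chr11:102840535-102840567 and that of MMP10 at chr11:102776718-102776750, all on the minus strand. The sites of MMP2 (chr16:55491827-55491859), MMP9 (chr20:46012453-46012485) and MMP14 (chr14:22843283-22843315) are on the plus strand. The stromelysin sites of MMP3 and MMP10 were identical at 31 of 33 bases, and the most distant pair of these 7, MMP1 and MMP2, at 18 of 33. This likeness bears on the placing of reads. Over the whole transcripts, 59 windows of 50 bases in MMP10, 3.45% of its windows, also occur in MMP3, and 0 windows of 100 bases do. MMP2 shared 3.44% of its 50-base windows with AC007336.3, and TIMP2 4.19% with CEP295NL. MMP1, MMP13, MMP9, MMP14, TIMP1 and TIMP3 shared 0 windows of either length with another gene. Transcripts were compared in their own orientation only, so overlap with genes on the opposite strand is not covered.

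Collagenases cut fibrillar collagen, and both members of this class were higher with each SRSF5 siRNA. MMP13, collagenase 3 (ENSG00000137745.12, chromosome 11, 102942995 to 102955732, GRCh38), had a summed FPKM of 25.6 with siRNA 1 and 33.4 with siRNA 2, against 7.30 in the control. Its highest transcript, MMP13-201, was at 12.2 and 16.1 FPKM with the siRNAs and 3.39 FPKM in the control. These levels rest on 1402.5, 1802.5 and 411 read equivalents. Both siRNA libraries therefore lay above the control, by 3.50-fold and 4.57-fold in summed FPKM, and counting error alone gave intervals of 3.22 to 4.03 and 4.26 to 5.29 for the largest transcript. All 3 listed MMP13 transcripts were higher, but isoforms share reads here, so they are not separate evidence.

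MMP1, interstitial collagenase (ENSG00000196611.5, chromosome 11, 102789919 to 102798160), has 1 listed transcript, so its summed and highest FPKM are the same. It was at 2.02 FPKM with siRNA 1 and 6.09 FPKM with siRNA 2, against 0.694 FPKM in the control, on 168, 495 and 61 read equivalents. The siRNA 2 library stood highest, 8.77-fold over the control (95% counting interval 6.71 to 11.6), and the siRNA 1 library was 2.90-fold over it (2.15 to 3.96). Part of the gene, 150 exonic bases, lies opposite the noncoding gene WTAPP1, whose largest transcript held 3, 2.83 and 1.5 read equivalents.

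Stromelysins cut proteoglycans, laminins and other noncollagen proteins and can activate other MMP precursors. MMP10, stromelysin 2 (ENSG00000166670.10, chromosome 11, 102770502 to 102780628), had a summed FPKM of 2.85 with siRNA 1 and 9.16 with siRNA 2, against 0.827 in the control. The FPKM of its highest transcript was 1.44 (MMP10-201), 4.62 and 0.463 (MMP10-202 in both). The summed level was 3.45-fold and 11.1-fold over the control, with the same order of libraries as MMP1, and the siRNA 2 ratio was the highest of the 8 members that passed the filter on low values. Both parts of the transcript were higher. Over the 581 bases that MMP10-201 and MMP10-202 share, the coverage was 1.41, 4.62 and 0.463 FPKM, and over the 1178 bases in MMP10-201 alone it was 1.45, 4.50 and 0.314 FPKM. The control values rest on 12 and 16.5 read equivalents.

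MMP3, stromelysin 1 (chromosome 11, 102835801 to 102843609), was barely detected. Its largest transcript held 3.25 read equivalents with siRNA 1, 3.25 with siRNA 2 and 0.5 in the control. Its summed FPKM was 0.175, 0.141 and 0.00615, and its highest transcript was at 0.0799, 0.0975 and 0.00615 FPKM. The counting interval of the ratio to the control reached down to 0.368 with siRNA 1 and 0.377 with siRNA 2, so a difference was not detectable at this depth.

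Gelatinases cut denatured collagen and collagen of the basement membrane. MMP2, gelatinase A (chromosome 16, 55389700 to 55506691), had a summed FPKM of 32.7 with siRNA 1 and 36.3 with siRNA 2, against 22.3 in the control. Its highest transcript, the 443-base MMP2-205 at the 3′ end of the gene, was at 6.32, 7.50 and 4.63 FPKM. Both siRNA libraries were above the control, by 1.46-fold and 1.62-fold, and the 8 listed transcripts were 1.36-fold to 1.51-fold and 1.58-fold to 1.66-fold over it. MMP2 shares 174 exonic bases on its own strand with the noncoding gene AC007336.3. MMP9, gelatinase B (chromosome 20, 46008908 to 46016561), held 3 read equivalents with siRNA 1, 9 with siRNA 2 and 1 in the control, or 0.0304, 0.0934 and 0.0096 FPKM in its single transcript. Its ratio to the control was 9.72 with siRNA 2 (1.35 to 426) and 3.16 with siRNA 1 (0.254 to 166). The antisense gene SLC12A5-AS1, which lies opposite 430 exonic bases of MMP9, held 3, 2.5 and 0.

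MMP14, the membrane-bound metalloproteinase that activates the MMP2 precursor at the cell surface (ENSG00000157227.13, chromosome 14, 22836560 to 22849027), was the most abundant member in each library. Its summed FPKM was 274 with siRNA 1 and 169.6 with siRNA 2, against 224 in the control, and MMP14-201 was at 59.7, 35.8 and 46.3 FPKM. The siRNA libraries lay on opposite sides of the control, at 122% and 75.6% of its summed level. For the largest transcript, MMP14-201, on 5475 to 9344 read equivalents, the ratios to the control were 1.29 and 0.775. The counting intervals of these transcript ratios, 1.25 to 1.33 and 0.748 to 0.802, were narrow. All 6 listed transcripts shared this pattern, the retained-intron transcript MMP14-204 (13.0, 8.96 and 10.5 FPKM) included.

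Among the inhibitors TIMP2 differed most. TIMP2, which inhibits MMPs and also links MMP14 to the MMP2 precursor (ENSG00000035862.12, chromosome 17, 78852977 to 78925387), had a summed FPKM of 8.60 with siRNA 1 and 17.1 with siRNA 2, against 3.43 in the control. Its highest transcript, TIMP2-201, was at 2.35, 4.43 and 0.854 FPKM, on 363, 667 and 139 read equivalents. The siRNA libraries were 2.51-fold and 4.98-fold over the control and did not overlap it within counting error. TIMP2 shares 198 exonic bases on its own strand with CEP295NL, a gene inside it, which had summed FPKM values of 2.57, 4.56 and 0.951. The opposite-strand gene AC022966.2, which shares 367 exonic bases with TIMP2, was listed at 0 in the 3 libraries.

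TIMP1, the secreted inhibitor with the highest level (chromosome X, 47582408 to 47586789), had a summed FPKM of 72.9 with siRNA 1 and 96.3 with siRNA 2, against 64.6 in the control. TIMP1-202 was at 20.4, 27.1 and 18.4 FPKM. The siRNA 2 library was 1.49-fold over the control and the siRNA 1 library 1.13-fold, and the counting interval of the siRNA 1 ratio of the largest transcript, 0.984 to 1.26, included 1. TIMP3, which stays bound to the matrix (chromosome 22, 32801701 to 32863043), has 1 listed transcript and was at 0.658 FPKM with siRNA 1 and 1.79 FPKM with siRNA 2, against 1.51 FPKM in the control. It was the member with the lowest siRNA 1 ratio, 0.437 (0.353 to 0.538), and with siRNA 2 it was 1.19-fold over the control (1.02 to 1.39).

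**Figure D1:**
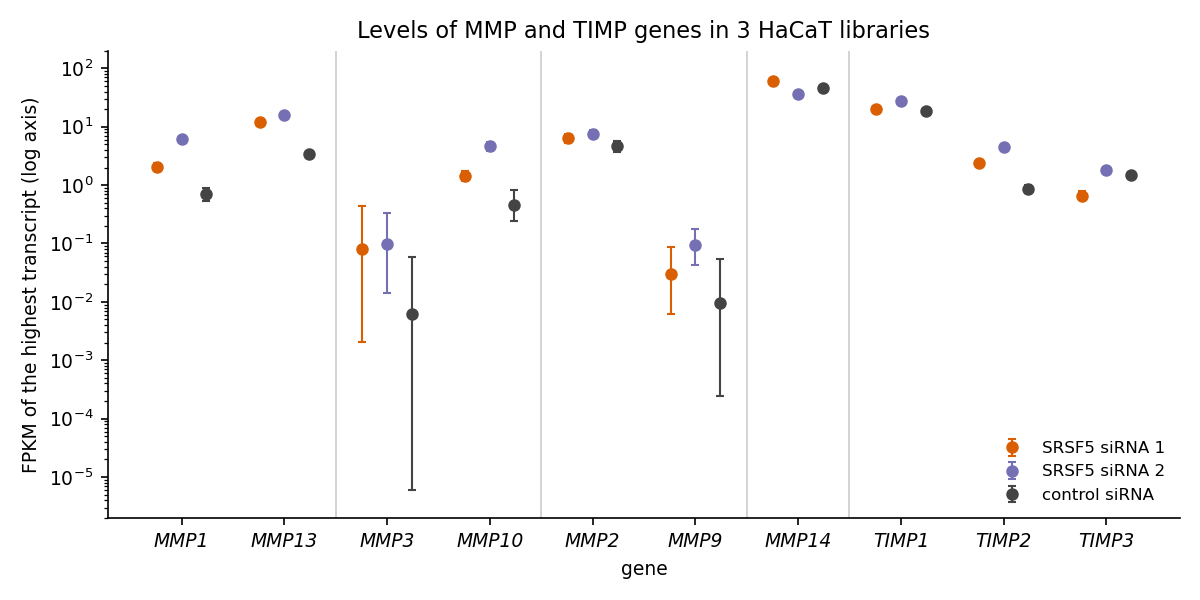
FPKM of the highest transcript of each member on a log axis, with 1 point for each library and bars for the 95% counting interval of that transcript, which covers counting error only. MMP1, MMP13, MMP10 and TIMP2 lie above the control with both siRNAs, MMP14 and TIMP3 lie on either side of it, and MMP3 and MMP9 sit below 0.1 FPKM.

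The order of the members was similar in the 3 libraries at the top and differed below. By FPKM of the highest transcript it was MMP14, TIMP1, MMP13, MMP2, TIMP2, MMP1, MMP10, TIMP3, MMP3 and MMP9 with siRNA 1. With siRNA 2 it was MMP14, TIMP1, MMP13, MMP2, MMP1, MMP10, TIMP2, TIMP3, MMP3 and MMP9. In the control it was MMP14, TIMP1, MMP2, MMP13, TIMP3, TIMP2, MMP1, MMP10, MMP9 and MMP3. TIMP3 thus ranked below TIMP2, MMP1 and MMP10 with either siRNA and above all 3 in the control. In the siRNA 1 library the counting intervals of MMP1 overlapped those of its neighbours TIMP2 and MMP10. In the siRNA 2 library they overlapped for MMP2 and MMP1, for MMP1 and MMP10, and for MMP10 and TIMP2. In the control they overlapped for MMP2 and MMP13, for TIMP2 and MMP1, and for MMP1 and MMP10, and those of MMP3 and MMP9 overlapped in each library.

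The comparison with the control was made over all genes on the scale log2(summed FPKM + 1), which understates differences of low genes. Of the 13923 genes with a mean summed FPKM of at least 1, 3.19% were at least 1.5-fold higher in both siRNA libraries and 1.47% at least 1.5-fold lower in both. Of the 10 members 8 passed this filter. MMP1 and MMP10 were below 1 FPKM in the control and passed through the siRNA libraries, so the share of members called is not read as a result. MMP13 had log2 ratios of 1.68 with siRNA 1 and 2.05 with siRNA 2, MMP10 of 1.08 and 2.48, TIMP2 of 1.12 and 2.03, and MMP1 of 0.83 and 2.06. These 4 were at least 1.5-fold higher in both siRNA libraries and 0 were lower in both. MMP13, MMP10 and TIMP2 were also at least 2-fold higher in both, where 0.733% of all genes were, and 0 members were 2-fold lower in both, where 0.28% were. With siRNA 1 alone 4 members were at least 1.5-fold higher (6.18% of all genes) and TIMP3 was lower (5.47%), and 3 were at least 2-fold higher (1.7%) and 0 lower (1.33%). With siRNA 2 alone 5 members, MMP2 among them, were at least 1.5-fold higher (13.2% of all genes) and 0 lower (10.1%), and 4 were at least 2-fold higher (4.5%) and 0 lower (2.83%). MMP2 (0.53 and 0.68) missed the 1.5-fold rule with siRNA 1, and TIMP1 (0.17 and 0.57) missed it with both. MMP14 was at 0.29 and -0.40, and TIMP3 at -0.60 and 0.15. Over all genes tested the median ratio was -0.03 with siRNA 1 and 0.05 with siRNA 2. Both ratios use the same control library.

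**Figure D2:**
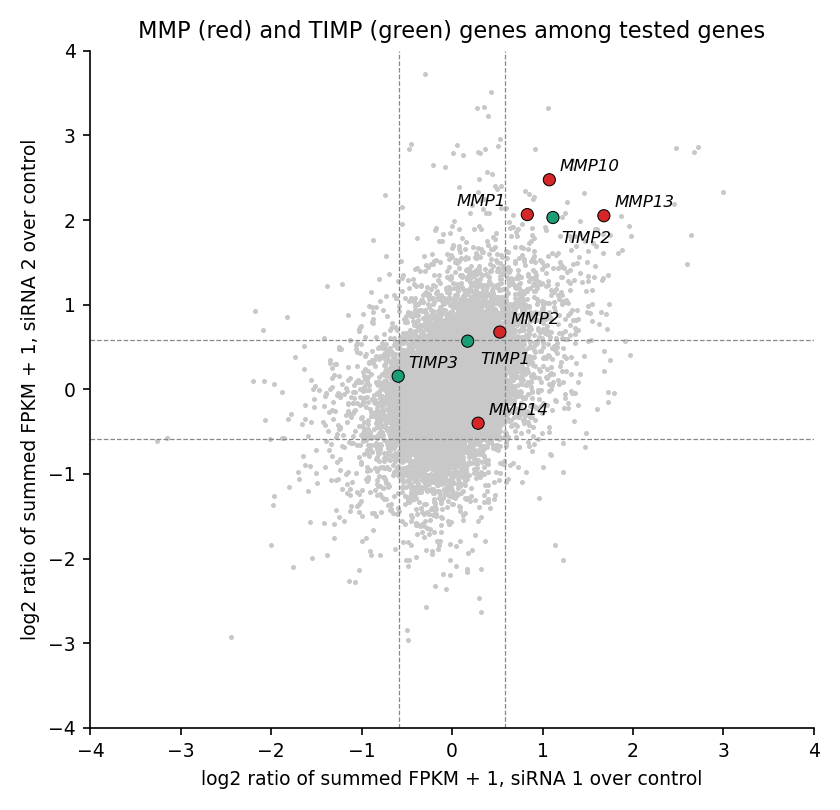
Log2 ratios of summed FPKM + 1 over the control, siRNA 1 on the horizontal and siRNA 2 on the vertical axis, for the 13923 tested genes (grey) and the 8 members that passed the filter. Dashed lines mark 1.5-fold. MMP1, MMP10, MMP13 and TIMP2 lie in the upper right corner beyond both lines, and MMP14 and TIMP3 have ratios of opposite sign.

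The test did not call these differences. In limma, fitted to 2 siRNA libraries against 1 control, 1 residual degree of freedom remained, and the lone control was assumed to vary as the siRNA libraries did. The spread of each gene was moderated toward that of tested genes of like level, so a p-value does not rest on the gene's own spread alone. With Benjamini-Hochberg adjustment over 13923 genes it called 0 members and 0 genes (0% of those tested), with 416 genes at an unadjusted p below 0.05. MMP13 had the smallest p among the members (log2 ratio 1.86 ± 0.26, SD, n = 2, limma SE 0.41, unadjusted p = 0.00075, adjusted p = 0.70, or 0.42 to 1.00 under the alternatives tried). For MMP10 the mean ratio was 1.78 ± 0.99, for TIMP2 1.57 ± 0.65 and for MMP1 1.45 ± 0.87 (SD, n = 2), and limma gave unadjusted p-values of 0.00719, 0.00737 and 0.0155 and an adjusted p of 1.00 each. These 4 members had an unadjusted p below 0.05 and were higher, as were 2.11% of all genes. Since MMP1 and MMP10 passed the filter through the siRNA libraries, this number of members is not read as a result. A robust limma fit called 3 genes, 0 of them members.

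The siRNAs differed from each other in several members. MMP1 was 3.02-fold higher with siRNA 2 than with siRNA 1 (95% counting interval 2.53 to 3.62), and MMP10 3.21-fold in summed FPKM (2.54 to 3.97 for the largest transcript). On the log2(summed FPKM + 1) scale these 2 members were more than 2-fold higher with siRNA 2, as were 3.96% of all genes, and 0 were 2-fold lower, as were 2.88%. At 1.5-fold 4 members were higher (13.7% of all genes) and 1, MMP14, lower (10.5%). TIMP2 was 1.99-fold, TIMP3 2.72-fold and MMP13 1.31-fold higher with siRNA 2 in FPKM, and MMP14 was at 0.619 of its siRNA 1 level. MMP1, MMP2, MMP10, MMP13, TIMP1 and TIMP2 were highest with siRNA 2, intermediate with siRNA 1 and lowest in the control, an order that 20% of all genes had. For MMP2 the step from siRNA 1 to siRNA 2 was within counting error (0.951 to 1.20 for the largest transcript). The same held for TIMP1 from the control to siRNA 1 (0.984 to 1.26). MMP1 and MMP10 passed the filter through the siRNA libraries, so the number of members in this order is not read as a result. The same holds for the numbers of members 2-fold or 1.5-fold apart between the siRNAs. SRSF5 itself was lower with siRNA 2 than with siRNA 1, and with 1 library for each siRNA these differences have no replicate check.

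The balance of secreted enzymes and inhibitors was set out at the RNA level, as FPKM of the highest transcripts. The 6 secreted members (MMP1, MMP2, MMP3, MMP9, MMP10 and MMP13) summed to 22.1 FPKM with siRNA 1, 34.5 FPKM with siRNA 2 and 9.20 FPKM in the control. TIMP1, TIMP2 and TIMP3 summed to 23.4, 33.3 and 20.7 FPKM. The ratio of enzymes to inhibitors was therefore 0.944 with siRNA 1 and 1.04 with siRNA 2, against 0.444 in the control, a log2 difference of 1.09 and 1.22. With summed instead of highest transcripts the ratio was 0.771 and 0.740, against 0.449. MMP14, the most abundant member, is membrane-bound and lies outside this ratio. Its highest transcript alone was at 2.55 times the TIMP sum with siRNA 1, 1.08 times with siRNA 2 and 2.23 times in the control. For MMP14 the siRNA 2 library thus lay below the control. MMP13 made up 55.3% and 46.7% of the secreted enzyme RNA with the siRNAs and 36.9% in the control, where MMP2 led with 50.4%. This order rests on MMP2-205, a short transcript of the nonsense-mediated decay class, as the highest of MMP2. With summed transcripts MMP2 led in each library, with 51.6% and 42.6% with the siRNAs and 71.7% in the control, and MMP13 held 40.4% and 39.2%, against 23.4%. TIMP1 held 87.2% and 81.3% of the inhibitor RNA with the siRNAs and 88.6% in the control, and TIMP2 held 10.0% and 13.3%, against 4.12%. These are levels of RNA in cells, and protein and activity were not analysed here.

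**Figure D3:**
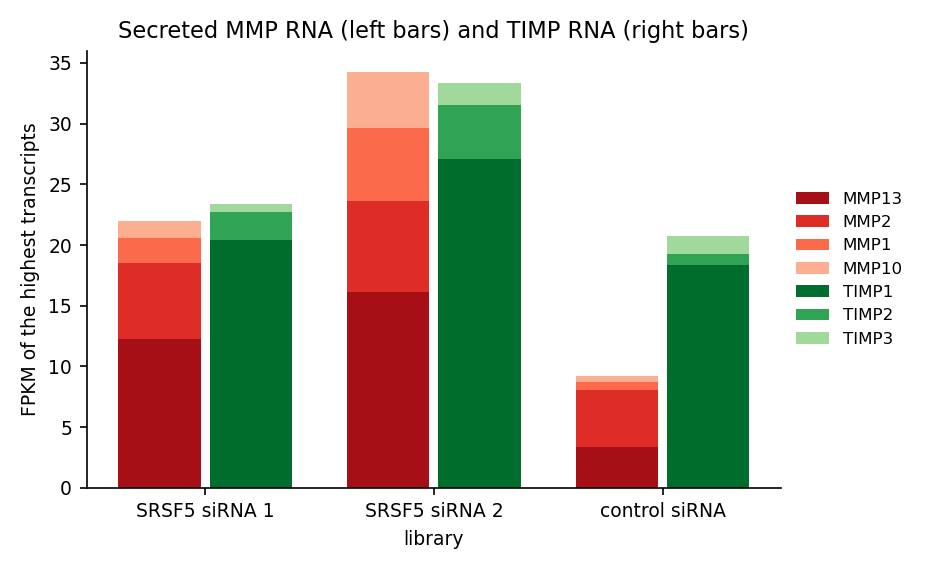
FPKM of the highest transcripts, stacked by gene, of the secreted MMPs (left bar of each pair, MMP3 and MMP9 left out as too low to see) and of the TIMPs (right bar) in each library. The bars of a pair are of like height with siRNA 1 and siRNA 2, and in the control the MMP bar of 9.20 FPKM stands below the TIMP bar of 20.7 FPKM.

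MMP1, MMP3, MMP10 and MMP13 lie in a cluster of 9 MMP genes on chromosome 11, from 102520508 to 102955732, all on the minus strand. MMP7, matrilysin, which opens the cluster, had a summed FPKM of 19.0 with siRNA 1 and 16.2 with siRNA 2, against 7.42 in the control (log2 ratios 1.25 and 1.03). MMP12, macrophage elastase, had 0.581 FPKM with siRNA 1 and 3.01 FPKM with siRNA 2, against 0.156 FPKM in the control, on 46, 233 and 13 read equivalents. Its siRNA 2 level was 5.19-fold over its siRNA 1 level (3.77 to 7.28), so it shared the order of libraries of MMP1 and MMP10, while MMP7 did not. MMP20 held 4, 4 and 0 read equivalents, MMP8 held 0, 0.33 and 0, and MMP27 was listed at 0 in each library. Of the 5 cluster genes above the filter, MMP10, MMP1 and MMP12 were below 1 FPKM in the control and passed through the siRNA libraries, so the number of them that was higher is not read as a result. MMP7 and MMP13 were above 1 FPKM in each library. MMP12 was less than 1.5-fold higher with siRNA 1 on the scale with 1 added.

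**Figure D4:**
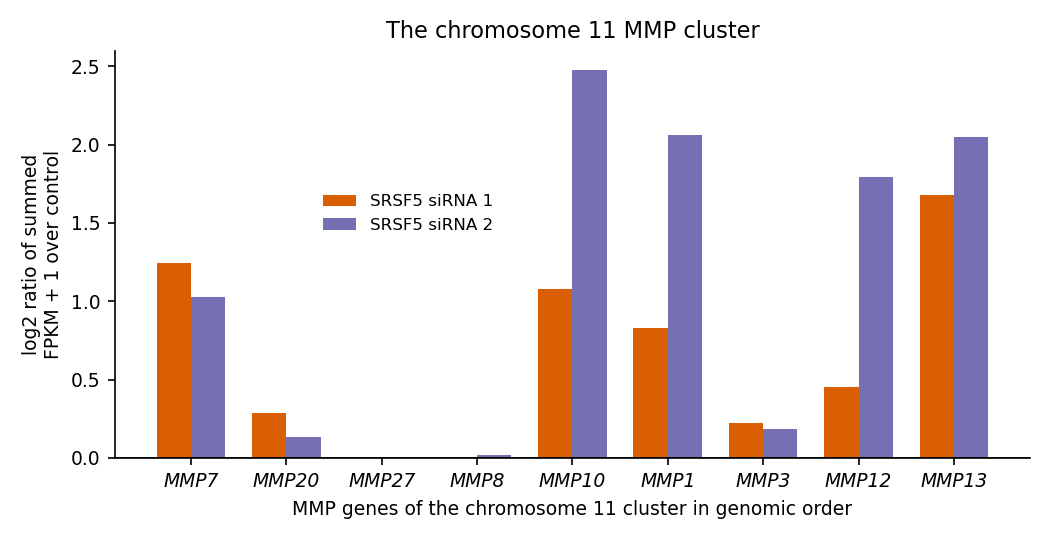
Log2 ratio of summed FPKM + 1 over the control for the 9 MMP genes of the chromosome 11 cluster in genomic order, with 1 bar for each siRNA. MMP7, MMP10, MMP1, MMP12 and MMP13 have bars above 0 with both siRNAs, and MMP20, MMP27, MMP8 and MMP3, which held at most 4 read equivalents in a library, have ratios of at most 0.29.

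The neighbours of the cluster differed among themselves. Of the genes above the filter on the far side of MMP13, DCUN1D5 had log2 ratios of 0.59 and 0.92. It was thus at least 1.5-fold higher with both siRNAs, as were 3.19% of all genes. DYNC2H1 was at -0.18 and 0.26, and CASP4 at 0.21 and -0.03. Before MMP7, TMEM123 had ratios of 0.59 and -0.11, BIRC2 of 0.48 and -0.34, and BIRC3 of -0.41 and -0.92.

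Promoters are shown for the members that the RefSeq table (GRCh38.p14) held, MMP10, MMP14, TIMP1 and TIMP3, and for MMP7 as the cluster neighbour that was at least 1.5-fold higher with both siRNAs. MMP1, MMP2, MMP3, MMP9, MMP13 and TIMP2 were not in it. Each line gives the 120 bases before the start of transcription. Capitals mark TATAAA, the TATA box, and TGAGTCA, a site of the AP-1 family of transcription factors, each searched on both strands (as TTTATA and TGACTCA too) over the 250 bases before the start.
MMP10: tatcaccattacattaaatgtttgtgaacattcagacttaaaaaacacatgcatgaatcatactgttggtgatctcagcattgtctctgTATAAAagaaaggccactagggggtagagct
MMP7: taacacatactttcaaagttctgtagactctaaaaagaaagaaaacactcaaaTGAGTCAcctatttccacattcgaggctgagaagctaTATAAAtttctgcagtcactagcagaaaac
MMP14: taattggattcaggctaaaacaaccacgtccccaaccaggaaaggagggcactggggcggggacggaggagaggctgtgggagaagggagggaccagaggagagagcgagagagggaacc
TIMP1: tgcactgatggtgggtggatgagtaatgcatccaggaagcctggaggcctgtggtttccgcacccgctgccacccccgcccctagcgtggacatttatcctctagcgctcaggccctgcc
TIMP3: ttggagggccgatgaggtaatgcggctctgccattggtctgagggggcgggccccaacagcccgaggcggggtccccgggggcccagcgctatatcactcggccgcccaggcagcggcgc

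These stretches lie at chr11:102780629-102780748 (MMP10, minus strand), chr11:102530748-102530867 (MMP7, minus), chr14:22836465-22836584 (MMP14, plus), chrX:47582316-47582435 (TIMP1, plus) and chr22:32801585-32801704 (TIMP3, plus). MMP10 and MMP7 have a TATA match that begins 31 and 30 bases before the start, and MMP7 an AP-1 match that begins 67 bases before it. The other 3 promoters hold neither motif in the 250 bases. The TATA motif is in 10.7% and the AP-1 motif in 4.20% of all 35116 promoters, in the same window. The G and C content of the window was 34.4% in MMP10 and 33.6% in MMP7, against 56.8% in MMP14, 64.8% in TIMP1 and 72.4% in TIMP3, with a median of 58.0% over all promoters. A match is a description of the letters and not evidence of binding.

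Beyond the members, 5 of 16 other MMP genes passed the filter. In both siRNA libraries MMP7 was at least 1.5-fold higher (3.19% of all genes) and MMP28 at least 1.5-fold lower (1.47%). MMP28, epilysin, an MMP of keratinocytes and other epithelia, had log2 ratios of -0.62 and -0.96. The membrane-bound MMP15 (-0.77 and -0.20) and MMP17 (0.20 and -0.01) and the elastase MMP12 (0.45 and 1.80) did not meet the rule in both. Of 5 other inhibitors 1 passed the filter, the matrix-bound protease inhibitor TFPI2, at 0.35 and -0.07. TIMP4, at 1.13, 0.731 and 0.789 FPKM, had 57, 36 and 42 read equivalents. RECK, a membrane-anchored inhibitor of MMPs, had 87 and 54.3 read equivalents with the siRNAs and 16.8 in the control. Both were under the filter.

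The plasminogen system, whose product plasmin activates MMP precursors, was listed with 10 genes, of which 9 passed the filter, 2 were higher in both (3.19% of all genes) and 0 lower in both (1.47%). SERPINE2, an inhibitor of plasminogen activators and thrombin, had log2 ratios of 0.88 and 1.76. ANXA2, which with S100A10 binds plasminogen at the cell surface, had ratios of 0.70 and 0.70, although it has close copies in the genome that can share its reads, and S100A10 was at 0.14 and 0.23. PLAU, urokinase, had a summed FPKM of 152 with siRNA 1 and 63.9 with siRNA 2, against 72.7 in the control (1.05 and -0.18). Its inhibitor SERPINB2 went the other way, at -0.46 and 1.08.

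Furin-type convertases cut the precursor of MMP14. Of the 4 listed, 0 were higher in both libraries (3.19% of all genes) and 0 lower in both (1.47%). FURIN was at 0.65 and -0.12, PCSK5 at -0.51 and -0.17 and PCSK7 at -0.14 and -0.17. Of 8 cell surface partners 1 was higher in both (3.19% of all genes) and 0 lower in both (1.47%). The higher one was CLDN1, a tight junction protein that can bind MMP precursors, at 1.10 and 1.12. CD44 (0.32 and 0.30), ITGB1 (-0.34 and -0.19) and BSG, the MMP inducer basigin (0.08 and -0.04), were within 1.5-fold of the control.

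Of 10 listed ligands that induce MMPs 6 passed the filter, and 0 were higher in both (3.19% of all genes). TGFA, a ligand of the EGF receptor, was the 1 lower in both (-0.76 and -1.04), as were 1.47% of all genes. TGFB1 (0.46 and -0.37), HBEGF (-0.86 and -0.07) and IL1A (-0.05 and 0.64) were not apart in both. IL6, picked after its values were seen, was at 0.29 and 2.81. The 13 listed factors of the AP-1, ETS and RUNX families bind MMP promoters. Of these, 0 were higher in both libraries (3.19% of all genes) and 0 lower in both (1.47%). At least 2-fold higher with siRNA 2 than with siRNA 1 were 6 (3.96% of all genes). JUND was at 0.02 and 0.44, JUNB at 0.34 and 0.88, and FOSL1 at -0.71 and -0.11. The 6 are given here after their values were seen. RUNX1 (0.54 and 1.58), FOSL2 (0.33 and 1.35) and ETS2 (0.03 and 1.05) were above the control with both siRNAs, FOS was at -0.20 and 0.84, and ETV4 (-1.30 and -0.26) and ETV5 (-1.43 and -0.38) were below it with both.

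Among 13 substrates 11 passed the filter and 3 were higher in both (3.19% of all genes), the laminin chains LAMA3 (0.74 and 0.88) and LAMB3 (0.64 and 0.76) and the collagen chain COL1A1 (0.78 and 0.75). The collagen chains COL17A1 (0.25 and 0.62) and COL4A2 (0.15 and -0.55) and the laminin chain LAMA5 (0.43 and -0.63) were not apart in both. In limma 0 of the genes of these lists passed with Benjamini-Hochberg adjustment over all genes.

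**Figure D5:**
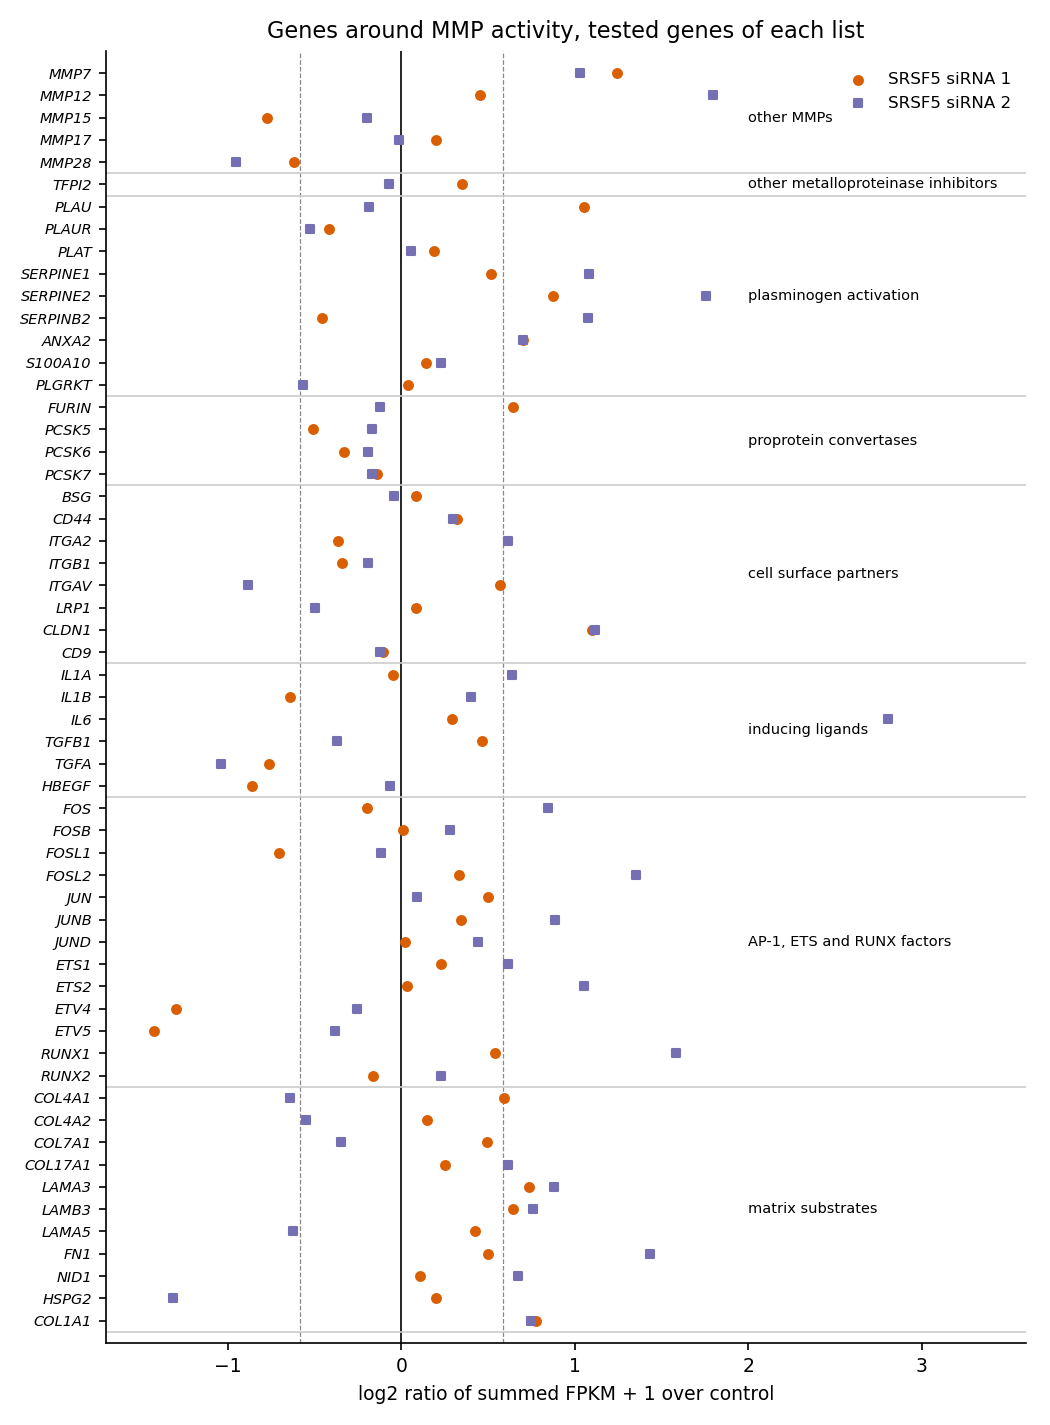
Log2 ratios of summed FPKM + 1 over the control for the genes of each list that passed the filter, with circles for siRNA 1 and squares for siRNA 2 and dashed lines at 1.5-fold. MMP7, SERPINE2, ANXA2, CLDN1, LAMA3, LAMB3 and COL1A1 lie right of the upper line with both siRNAs, and MMP28 and TGFA lie left of the lower line.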

How the data were processed

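HaCaT RNA gave 3 libraries, prepared by a SMARTer mRNA-Seq kit, per the labels' protocols. The authors deposited FPKM per transcript, per the file headers. Of GRCh38.p12, mm10 and GRCm38, all named in the submitters' processing notes, the roles are unstated. The aligner was not given in the sources used here. All 191999 transcripts whose versioned identifier is also in GENCODE 29 (GRCh38) had its positions.

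FPKM were summed per gene, leaving out 20343 of 247012 transcripts on scaffolds or duplicated. FPKM times length was a whole multiple of 1 step (tolerance 0.05, 100% of low values), read as bases, and 100 bases were called a read equivalent. All 9 values of the 3 members with 1 transcript were multiples of 100 bases. Over all genes with 1 transcript, only 43.5% to 44.6% of values above 0 in a library were. For multiples of 99 bases the share was 0.341% to 0.386%. A base counts in each transcript it overlaps, so isoforms share reads and sums grow with listed transcripts. Intervals (95%, exact Poisson or conditional binomial) cover counting error only and are too narrow if reads were paired. Genes of a mean summed FPKM of at least 1 were tested with limma 3.58.1 (R 4.3.3) on log2(FPKM + 1) with a trend. The fit was tested on simulated data in which all genes had the same spread, so its error rate in these data was not tested. No separate cultures are stated, so p-values measure the spread between these samples. That spread is the difference between the siRNA libraries, which limma moderates toward that of tested genes of like level. None of it comes from the control. The members and lists were chosen with earlier results of these data known. Named beside the members were the list genes that met the 1.5-fold rule with both siRNAs, up to 3 others highest in the control, and 3 nearest genes for each such member. Of the substrate list, 1 gene is not reported here.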

Additional observations from a re-analysis of the deposited data

How the results depend on the processing

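Of 56 member ratios recomputed under alternatives, 53 kept their sign and 3 did not. Of 56 counts and balance values, 47 stayed within 1.5 times of the reported count or within the spread of the siRNAs. Most of these 47 were counts of 0 that stayed at 0, so the tally says little of stability. The enzyme to inhibitor balance moved beyond the spread of the siRNAs under both of its alternatives. The count of members higher in both was 3 at 2-fold, and with a pseudocount of 0.1 FPKM 3 members were 2-fold higher with siRNA 2 than with siRNA 1. The mean ratio of MMP2, 0.60, lies close to 1.5-fold and was 0.48 with the mean and 0.49 with the highest transcript. With a minimum of 5 FPKM, which removes MMP1, MMP10 and TIMP3, 2 members were higher in both siRNA libraries and 0 were 2-fold higher with siRNA 2 than with siRNA 1. At 1.5-fold, 4 members were higher and 1 lower with siRNA 2 than with siRNA 1. Without 1 siRNA library, 4 to 5 members were at least 1.5-fold higher and 0 to 1 lower, the lower one being TIMP3 without siRNA 2. MMP14, at a mean of -0.06, was at 0.00045 with the highest transcript and at -0.40 to 0.29 without 1 siRNA library, and TIMP3 at -0.60 to 0.15. The log2 difference in the enzyme to inhibitor ratio was 1.16 as a mean of both siRNAs, and by alternatives chosen after seeing the data 1.27 with mean and 0.75 with summed transcripts, since sums weight genes by their number of transcripts. With no filter limma called 1343 genes, 0 of them members, and a robust fit called 3 (ALPP, OLR1 and SERPINB7). The cause was not tested for those counts.

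Without replicates of either siRNA or of the control, differences between libraries and effects of an siRNA cannot be told apart. MMP3 and MMP9 were at the limit of detection, where 3 read equivalents correspond to 0.039 FPKM of MMP3 with siRNA 1. No paired analysis was possible because the control has 1 library and its label carries no number, and leaving out either siRNA library leaves no residual degree of freedom for a test.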

Other observations

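The tested genes whose pair of log2 ratios lay nearest to each of the 4 members apart in both siRNA libraries were listed as a description over 3 libraries, with the distance in the plane of both ratios. Nearest to MMP1 were ZBED2 (0.024), PDZD2 (0.044) and ANKRD33B (0.13). Nearest to MMP10 were GAB2 (0.27), CD55, a regulator of complement (0.28), and KRT16, a keratin of wounded and activated keratinocytes (0.29). KRT16 had a summed FPKM of 13.6 with siRNA 1 and 39.1 with siRNA 2, against 7.14 in the control. Nearest to MMP13 were LIPH, a lipase (0.18), AKIRIN1 (0.19) and the integrin-like ITGBL1 (0.19). ITGBL1 had a summed FPKM of 41.7 and 47.2 with the siRNAs, against 10.7 in the control. Nearest to TIMP2 were CCBE1 (0.099), the matricellular protein CCN2 (0.14) and PLAC8 (0.14). CCN2 was at 2.69 and 5.58, against 0.556 in the control. With 3 libraries that share 1 control, many genes lie near any point, so nearness says nothing of shared control.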
